A study of Mus musculus with 2 samples.

Results

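The 7 genes described here encode 2 secreted positioning signals of the developing hippocampus and the proteins that receive them. They were taken by gene symbol from the 32285 genes of the deposited count tables, and each symbol matched 1 row. Reln encodes the ligand reelin, Lrp8 and Vldlr its receptors and Dab1 the adaptor inside the receiving cell. Cxcl12 encodes a chemokine, Cxcr4 its signalling receptor and Ackr3 a receptor that binds Cxcl12 and removes it. The cells came from the dentate gyrus of mice at postnatal day 5 and were profiled by droplet single-cell RNA sequencing of transcript 3′ ends. The control library had the genotype wild type and the other library the genotype Setdb1_cKO, a conditional knockout of Setdb1, which encodes a methyltransferase for histone H3 lysine 9. The Cre line, the deleted exons and the number of animals behind a library were not given in the sources used here. Each genotype had 1 library, so every difference below is between these libraries, no test was made, and no difference has a replicate check.

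Reelin is made by Cajal-Retzius cells, early-born neurons of the outer layer of the hippocampus and cortex, and later by some GABAergic interneurons. It binds the receptors Lrp8 (also called ApoER2) and Vldlr on migrating neurons and on radial glia, which leads to phosphorylation of Dab1. In reelin mutant mice the granule cells of the dentate gyrus are scattered and the radial glial scaffold is disordered. Cxcl12 is made by the meninges, the membranes that cover the brain, and by Cajal-Retzius cells and blood vessels. It keeps cells that carry Cxcr4 near the surface and guides dentate progenitors to the forming gyrus, and in mice that lack Cxcr4 the dentate gyrus is malformed.

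Counts are unique molecular identifiers (UMIs), 1 for each captured transcript molecule. The libraries held 82393428 UMIs in control and 87845965 in Setdb1_cKO, and 10809 and 9360 cells with medians of 5925 and 6977 UMIs were kept. Cells were put into classes by marker genes other than the 7, and 15 classes with at least 20 cells in each library were compared. A class name means that a cell carried those markers. In pyramidal or mossy neurons only 2 of 10 markers peaked in the class, and the mural class held Cldn5, an endothelial marker, at 1880 and 1538 CPM. CPM is the UMIs of a gene per 1000000 UMIs of the class, and ratios are Setdb1_cKO over control. Parentheses after a ratio, level or share hold exact 95% intervals, which cover counting error only. Setdb1 itself stood at 42.7 CPM over all control cells and 20.4 over all Setdb1_cKO cells. Its ratio was 0.351 (0.298 to 0.411) in radial glia and 0.377 (0.271 to 0.519) in Cajal-Retzius cells, but 0.981 (0.536 to 1.73) in the endothelial class and 1.01 (0.639 to 1.59) for fibroblasts. The libraries also differed in sex: Xist had 16 UMIs in control and 94103 in Setdb1_cKO, and the Y-linked gene Ddx3y 4182 and 0, so genotype, sex and library cannot be told apart in any ratio below. When cells were clustered jointly, neuroblasts lay most often in clusters 0 and 7 in control and 3 and 1 in Setdb1_cKO, radial glia in 6 and 12 against 5 and 2, and intermediate progenitors in 11 and 4 against 16 and 8. Granule neurons lay mostly in cluster 0 in control and 1 in Setdb1_cKO. Ratios within these 4 classes thus compare partly different clusters. Clusters 1 (66 control and 1986 Setdb1_cKO cells) and 8 (10 and 783 cells) got no class name. Where classes came from clusters, these cells were left out, mostly on the Setdb1_cKO side.

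Reln (ENSMUSG00000042453) lies on the reverse strand of chromosome 5, from 21884454 to 22344702 (GENCODE vM21 on GRCm38, the assembly of mm10). Cxcl12 (ENSMUSG00000061353) lies on the forward strand of chromosome 6, from 117168535 to 117181367. The 250 bases before the transcription start are shown for both ligand genes, since both are read together in Cajal-Retzius cells below, with each CG pair in capitals. The sequences are RefSeq's (GRCm38.p6), 5′ to 3′ on the strand of the gene. Reln, chr5:22344706-22344955, and Cxcl12, chr6:117168285-117168534, read:
Reln: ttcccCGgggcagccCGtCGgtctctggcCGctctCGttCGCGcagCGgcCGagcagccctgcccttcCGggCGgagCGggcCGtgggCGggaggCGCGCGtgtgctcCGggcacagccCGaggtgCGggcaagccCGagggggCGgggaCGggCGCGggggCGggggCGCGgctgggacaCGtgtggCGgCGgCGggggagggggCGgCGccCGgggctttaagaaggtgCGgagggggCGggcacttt
Cxcl12: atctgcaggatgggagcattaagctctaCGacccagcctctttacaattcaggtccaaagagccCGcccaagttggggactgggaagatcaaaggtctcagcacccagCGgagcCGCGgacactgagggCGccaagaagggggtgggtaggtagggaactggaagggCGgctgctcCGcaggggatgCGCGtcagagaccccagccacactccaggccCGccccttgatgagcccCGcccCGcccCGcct
The Reln stretch held 37 CG pairs, a number reached by 2.2% of 32851 mouse promoter stretches of the same length, and was 80.0% G or C. The Cxcl12 stretch held 14 CG pairs, reached by 29.4% of promoters, and was 64.4% G or C. The letters GGGCGG, counted on both strands, occurred 6 times before Reln and 5 times before Cxcl12, and 32.7% of all promoter stretches held them at least once. These are descriptions of the sequence, and no methylation or chromatin was measured.

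Reln was concentrated in Cajal-Retzius cells in both libraries. The class held 13930 of 14822 Reln UMIs in control (94%) and 12298 of 13488 in Setdb1_cKO (91.2%), although it made up 3.81% and 4.1% of the kept cells. The level there was 4308 CPM against 3512 CPM, a ratio of 0.815 (0.796 to 0.835), short of the 1.5-fold used here as the limit for a difference. None of the members reached that limit in Cajal-Retzius cells, where 6.32% of all measured genes did, and 14.8% of those genes had a ratio below that of Reln. Per cell, the median was 30 Reln UMIs in control (0 to 120) and 28 in Setdb1_cKO (0 to 126), or 39.8 and 32.7 per 10000 UMIs of the cell. The ranges of the libraries overlapped widely. After every cell was thinned to 2000 UMIs, 98.3% of control and 98.4% of Setdb1_cKO Cajal-Retzius cells held a Reln UMI. Microglia, which should lack the gene, held one in 1.31% and 3.37% of thinned cells, at unthinned median depths of 5988 and 7403 UMIs against 7796 and 8782 in Cajal-Retzius cells. Almost every cell of the class thus carried Reln in both libraries. Of 7 measured immediate early and dissociation genes, which respond to stimulation and tissue handling, 5 were at least 1.5-fold higher in Setdb1_cKO Cajal-Retzius cells and none lower, with a summed ratio of 1.49. Their part in the Reln ratio was not tested.

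**Figure D1:**
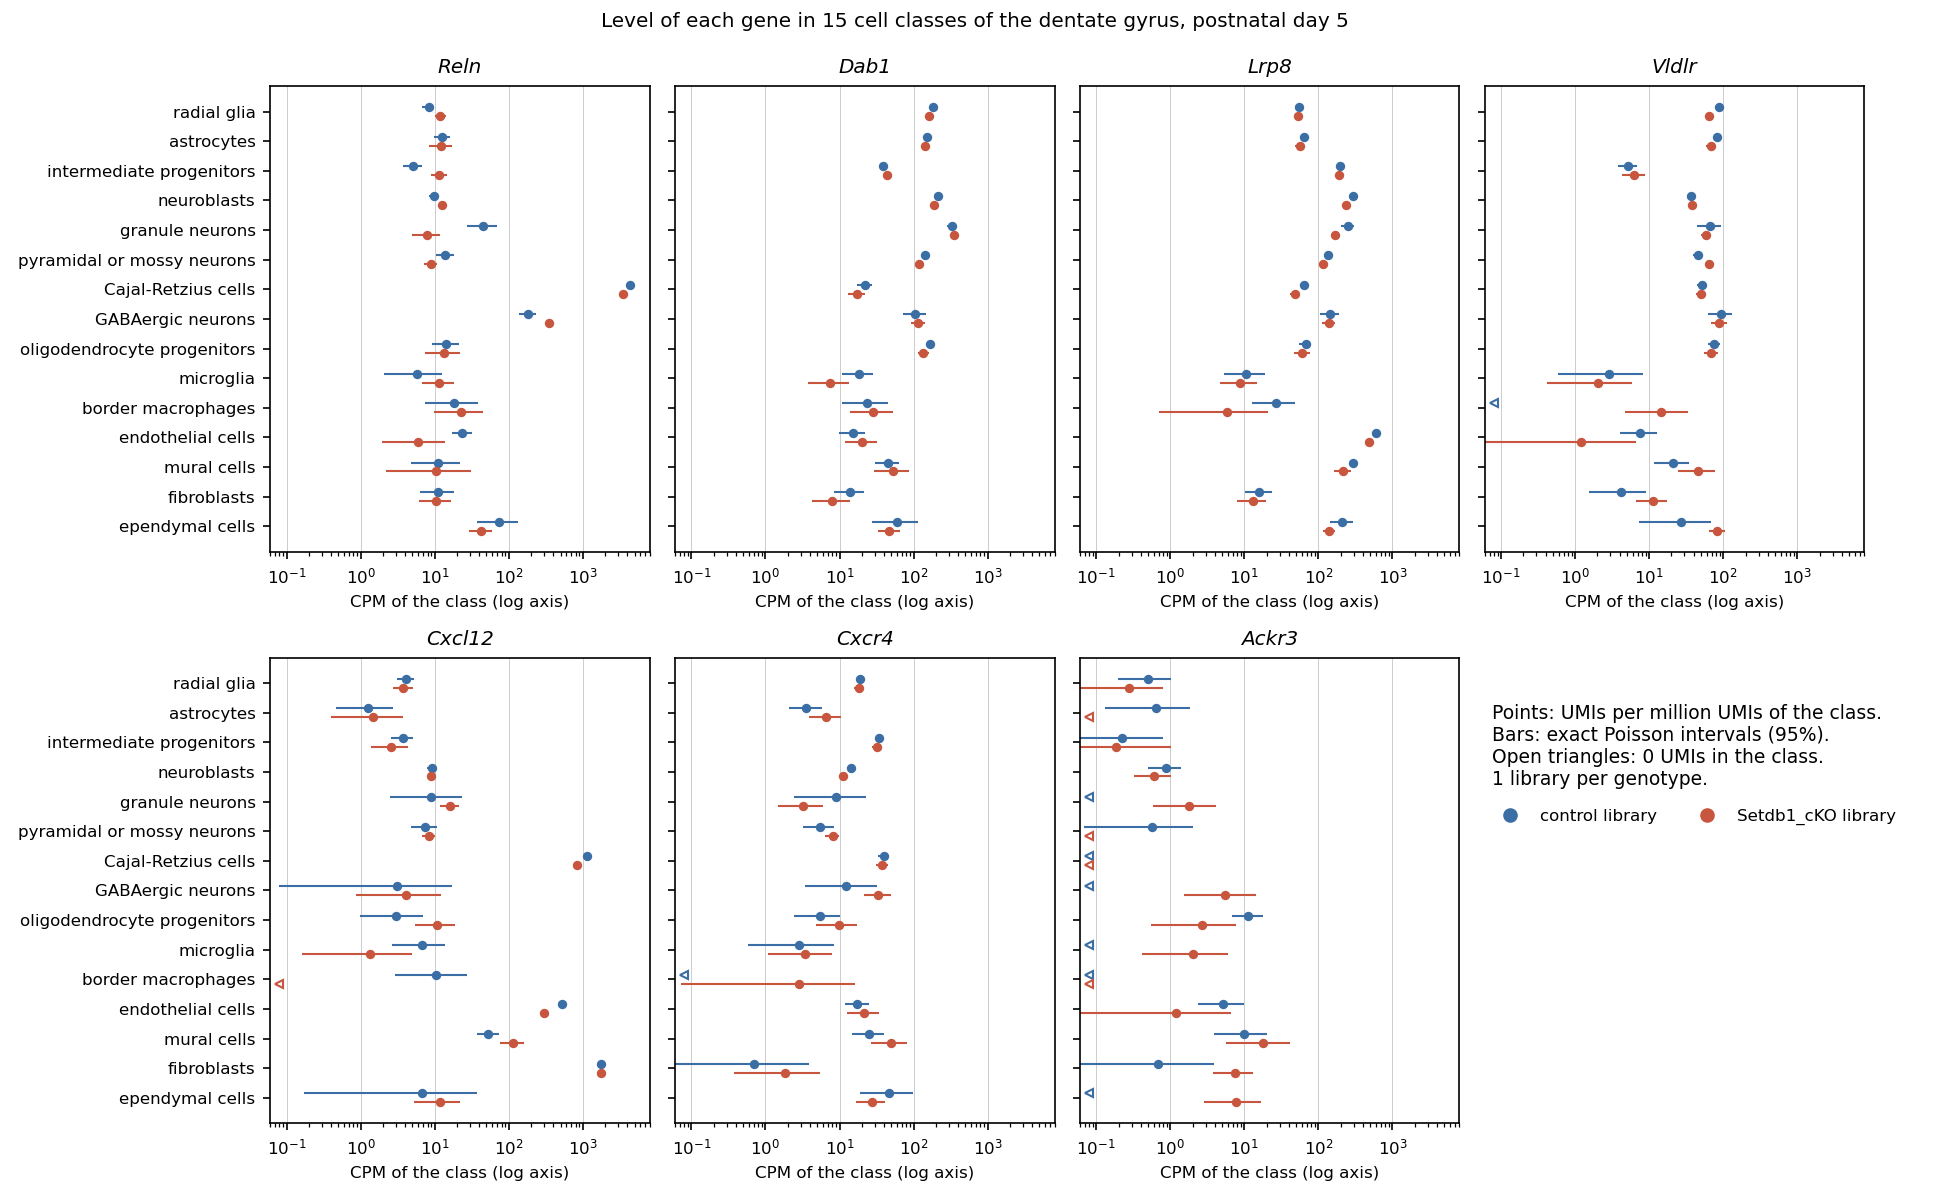
Level of each of the 7 genes in 15 cell classes, in CPM of the class on a log axis, for the control library and the Setdb1_cKO library, with exact 95% Poisson intervals. Reln stands apart in Cajal-Retzius cells (4308 and 3512 CPM), Cxcl12 in fibroblasts, Cajal-Retzius cells and endothelial cells, and Lrp8 is highest in endothelial cells.

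GABAergic neurons came next for Reln, with 59 UMIs in 24 control cells (182 CPM) and 252 in 61 Setdb1_cKO cells (349.5 CPM). The ratio of 1.92 (1.44 to 2.59) passed 1.5-fold as higher, as 2.88% of all genes measured in the class did. However, 1 cell held 103 of the Setdb1_cKO UMIs, and the call was lost without the cell with most Reln UMIs in each library. Cells with at least 10 Reln UMIs numbered 375 in control and 350 in Setdb1_cKO, and Cajal-Retzius cells made up 97.9% and 96.6% of them. Ependymal cells followed at 73.8 and 42.8 CPM on 11 and 33 UMIs. The other 12 classes lay between 5.13 and 45.1 CPM in control and between 5.98 and 23 in Setdb1_cKO.

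Reln passed 1.5-fold in 4 of these low classes. In intermediate progenitors, the dividing daughters of radial glia, it had 46 control UMIs (5.13 CPM) and 63 Setdb1_cKO UMIs (11.5 CPM). The ratio was 2.25 (1.51 to 3.36), and the call held in 9 of 9 alternatives, with ratios from 1.52 to 2.62. The lowest came with classes from clusters, which left out unnamed cluster 8, with 23.9% of gated Setdb1_cKO progenitors. In that class 3.82% of measured genes passed as higher. Both levels are low, and microglia stood at 5.72 and 11.5 CPM on 6 and 17 UMIs, too few to be measured. Reln was nearly level in fibroblasts, at 11.1 and 10.5 CPM, and in astrocytes, at 12.6 and 12.1. In the lineage neighbours of the progenitors it was higher in Setdb1_cKO but short of 1.5-fold. Radial glia stood at 8.27 and 11.9 CPM, a ratio of 1.44 (1.11 to 1.87). Neuroblasts stood at 9.8 and 12.7 CPM, a ratio of 1.3 (1.08 to 1.57). The part of free RNA in the progenitor ratio was not tested. Reln was past 1.5-fold lower in granule neurons (45.1 and 7.82 CPM), endothelial cells (23.7 and 5.98 CPM) and pyramidal or mossy neurons (13.9 and 8.79 CPM). The shares of all measured genes that passed as lower there were 5.81%, 3.78% and 8.15%. In each of the 3 classes a single control cell held most of the UMIs, 17 of 20, 31 of 41 and 28 of 49, and none of the 3 calls held without the top cells.

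Among the compared classes Cxcl12 had 3 main sources. Cells in no compared class held 675 Cxcl12 UMIs in control and 329 in Setdb1_cKO. These were 8.27% and 4.79% of all Cxcl12 UMIs of the library. In Setdb1_cKO that was more than the 252 UMIs of endothelial cells, in control less than their 906. Fibroblasts, which in the brain lie mainly in the meninges, were highest, at 1788 CPM in both libraries (2585 and 2899 UMIs), a ratio of 1.0 (0.948 to 1.05). In fibroblasts 6.28% of measured genes passed in either direction and no member did. Cajal-Retzius cells followed, with 3636 control UMIs (1124 CPM) and 2943 Setdb1_cKO UMIs (840.4 CPM), and the ratio of 0.747 (0.712 to 0.785) was again short of 1.5-fold. Endothelial cells held 906 UMIs in 134 control cells (525 CPM) and 252 in 59 Setdb1_cKO cells (301 CPM). Their ratio of 0.574 (0.497 to 0.661) passed as lower, beside the 3.78% of genes given above. The order of the 3 classes was the same in both libraries and each step was beyond counting error, the smallest being fibroblasts over Cajal-Retzius cells in control at 1.59 times (1.51 to 1.67).

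The classes differed in how Cxcl12 was spread over their cells. In fibroblasts the median cell held 12 Cxcl12 UMIs in control and 14 in Setdb1_cKO, and 2 of 199 and 1 of 188 cells held none. In Cajal-Retzius cells the median was 6 in control and 6 in Setdb1_cKO, with 46 of 412 and 39 of 384 cells at 0. Thinned to 2000 UMIs, 73.1% (68.4 to 77.3) of control and 66.1% (61.1 to 70.9) of Setdb1_cKO Cajal-Retzius cells held a Cxcl12 UMI, against 1.96% and 0% (up to 2.05%) of microglia. Most endothelial cells held none, 86 of 134 in control and 39 of 59 in Setdb1_cKO, while the highest held 90 and 46. The endothelial level thus rested on a minority of cells. Those with 10 or more Cxcl12 UMIs numbered 22 in control and 10 in Setdb1_cKO, similar shares of the class at 16.4% and 16.9%.

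The lower Cxcl12 of endothelial cells was present at both depths looked at. Among cells with at least 5000 UMIs it stood at 534 CPM (499 to 571) in control and 311 CPM (273 to 353) in Setdb1_cKO, and among shallower cells at 384 CPM (277 to 519) and 176 CPM (88.1 to 316). The ratio ran from 0.471 to 0.701 over 9 alternatives and kept the call in 8, all but a stricter marker gate. Summed fibroblast markers stood at 138 and 478 CPM in the endothelial class and mural markers at 2109 and 2477 CPM, with none of the 10 markers at 0 in either list. The 8 red blood cell markers stood at 1041 and 56.2 CPM, with 2 and 3 of them at 0. The proliferation markers Top2a and Mki67 were both lower in the class, with a summed ratio of 0.602. The part of any of these in the Cxcl12 ratio was not tested. In mural cells Cxcl12 stood at 53.1 and 113 CPM, a ratio of 2.12 (1.28 to 3.49) in a class where 6.41% of genes passed as higher. It rested on 8 and 3 cells and turned to 0.291 when classes came from clusters. The other 11 classes stood at 16 CPM or lower.

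**Figure D2:**
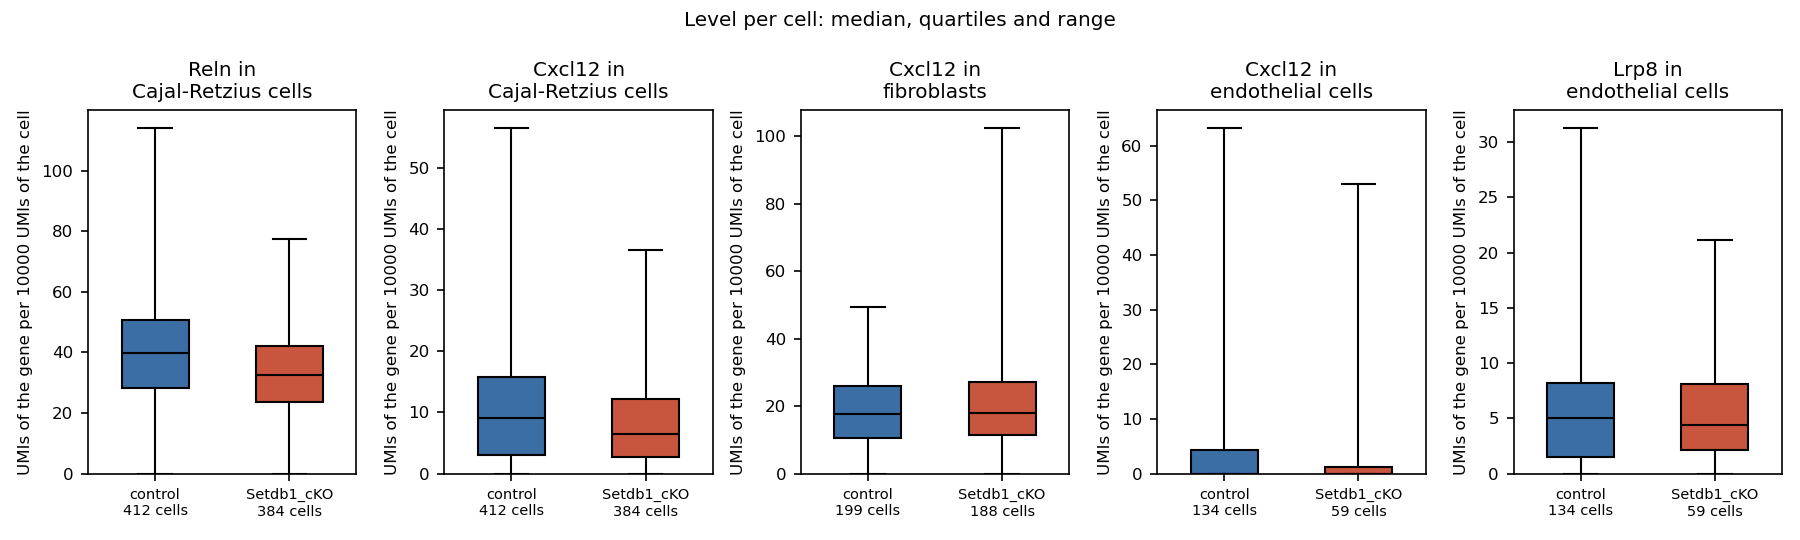
UMIs of the gene per 10000 UMIs of the cell in the control library and the Setdb1_cKO library, with box lines at the quartiles and median and whiskers to the lowest and highest cell. The median Reln level of Cajal-Retzius cells was 39.8 in control and 32.7 in Setdb1_cKO, while the median endothelial cell held no Cxcl12 in either library.

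Within Cajal-Retzius cells the cells with more Reln also held more Cxcl12. When the cells of each library were divided at the median Reln level, the upper part held Cxcl12 at 1394 CPM (1341 to 1449) in control and the lower part at 768 CPM (723 to 815). In Setdb1_cKO the values were 938 CPM (895 to 982) and 719.8 CPM (678 to 763). Median depth differed between the parts too, at 9086 and 6770 UMIs in control and 9775 and 8054 in Setdb1_cKO, and its part in the Cxcl12 difference was not tested. Dab1 ran the other way, at 13.6 and 33 CPM in control and 11.9 and 23.7 in Setdb1_cKO. So did Vldlr in control, at 41.8 and 65.4 CPM, but it was nearer level in Setdb1_cKO, at 48 and 51.8. Cxcr4 stood at 45.6 and 31.6 CPM in control and at 37.7 in both parts of Setdb1_cKO. Lrp8 stood at 65.2 and 63.2 CPM in control and 55.7 and 40.3 in Setdb1_cKO. Cells of 1 library are no replicates, so these are descriptions.

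Lrp8 (ENSMUSG00000028613, chromosome 4, from 107802261 to 107876840, forward strand) and Vldlr (ENSMUSG00000024924, chromosome 19, from 27216484 to 27254231, forward strand) are the 2 reelin receptors. Lrp8 was higher and Vldlr lower in intermediate progenitors than in radial glia, as given below, and the 250 bases before a RefSeq start are shown for both because of this contrast, from chr4:107802635-107802884 and chr19:27216234-27216483 of GRCm38.p6, forward strand, with CG pairs in capitals. The Lrp8 start used lies 624 bases downstream of the GENCODE gene start, so the stretch shown is inside the annotated gene. The Vldlr start coincides with its GENCODE start. RefSeq starts numbered 3 for Lrp8 and 2 for Vldlr. The one nearest the GENCODE start was used, and the CG counts below hold for that start only.
Lrp8: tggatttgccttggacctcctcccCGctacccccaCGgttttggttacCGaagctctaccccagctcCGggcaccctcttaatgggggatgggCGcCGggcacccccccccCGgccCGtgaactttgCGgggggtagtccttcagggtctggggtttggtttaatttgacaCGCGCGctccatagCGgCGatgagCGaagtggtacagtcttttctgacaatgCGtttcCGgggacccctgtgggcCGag
Vldlr: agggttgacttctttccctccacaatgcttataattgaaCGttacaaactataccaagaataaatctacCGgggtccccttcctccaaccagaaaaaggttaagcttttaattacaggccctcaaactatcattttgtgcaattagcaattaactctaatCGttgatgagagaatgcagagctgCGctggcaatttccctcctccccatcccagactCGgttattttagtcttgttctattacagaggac
Lrp8 had 18 CG pairs, which 21.7% of promoter stretches reach, and Vldlr 5, which 55.6% reach. Neither stretch held GGGCGG or TATAAA on either strand.

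Lrp8 was highest in endothelial cells, where 1045 control UMIs gave 605 CPM and 398 Setdb1_cKO UMIs gave 476 CPM, a ratio of 0.786 (0.699 to 0.883). That was 2.05 times (1.77 to 2.39) the next class in control and 2.0 times (1.8 to 2.21) the next in Setdb1_cKO. In thinned cells 64.1% of control and 54.3% of Setdb1_cKO endothelial cells held an Lrp8 UMI, against 0.654% and 1.12% of microglia, at unthinned median depths of 8066 and 6628 UMIs in endothelial cells. With a stricter gate the endothelial ratio was 1.04. Of cells with at least 10 Lrp8 UMIs, 48 of 92 in control and 21 of 49 in Setdb1_cKO lay in no compared class. Endothelial cells made up 30 and 15 of them. The endothelial gate kept 134 and 59 cells, while the larger joint cluster named endothelial alone held 184 and 66. With classes from clusters endothelial cells were again highest, at 595 and 490 CPM. Among neural cells Lrp8 was higher at later steps of the granule lineage, from 54.8 and 52.7 CPM in radial glia to 195 and 190.2 in intermediate progenitors and 293 and 238 in neuroblasts, the young granule neurons. Intermediate progenitors were 3.55 times (3.26 to 3.87) radial glia in control and 3.61 times (3.25 to 4.0) in Setdb1_cKO. Granule neurons stood at 248 and 170.0 CPM.

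In all 13 classes where Lrp8 was measured, meaning at least 30 UMIs over both libraries, the ratio was below 1, from 0.667 to 0.976, and in 6 of them the interval excluded 1. None passed 1.5-fold with an interval that excluded 1. These counts have no share over all genes beside them. The share of measured genes with a lower ratio than Lrp8 ran from 9.41% in Cajal-Retzius cells to 48.6% in radial glia. Lrp8 was thus near the middle of all genes in some classes, with 47.9% in intermediate progenitors and 48.4% in GABAergic neurons. The classes share the same pair of libraries, so these are not independent observations. With class medians set to 0 the ratio was below 1 in 13 of 13 classes, with thinning in 10 of 11, without the top cell in 12 of 13, with the stricter gate in 10 of 13 and with clusters in 8 of 11. In neuroblasts, with 5732 and 5152 Lrp8 UMIs, the ratio was 0.813 (0.783 to 0.845) by gates and 1.01 by clusters. The cluster ratio left out unnamed cluster 1, which held 37.2% of gated Setdb1_cKO neuroblasts. By clusters 76.8% of gated control but 43.2% of gated Setdb1_cKO neuroblasts kept that name, so the 2 ratios compare partly different cells. No member passed in neuroblasts, where 11.2% of measured genes did. In granule neurons the Lrp8 ratio was 0.685 (0.555 to 0.85) on 110 and 478 UMIs.

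Vldlr was shared by radial glia, astrocytes, oligodendrocyte progenitors and several neuron classes, and was near background in intermediate progenitors. It stood at 87.1 CPM in control radial glia (1232 UMIs) and 5.13 in control intermediate progenitors (46 UMIs). In Setdb1_cKO these classes stood at 63.5 (687 UMIs) and 6.22 CPM (34 UMIs). The progenitors thus held 0.0589 times (0.0429 to 0.079) the level of radial glia in control and 0.098 times (0.0673 to 0.138) in Setdb1_cKO. In thinned cells the shares with a Vldlr UMI were 16.2% and 11.8% of radial glia but 1.06% and 1.17% of intermediate progenitors, beside 1.31% and 0% (up to 2.05%) of microglia. Unthinned, radial glia had median depths of 6041 and 7302 UMIs, and intermediate progenitors 7306 and 8231. Neuroblasts were back at 36.6 and 37.7 CPM and granule neurons at 65.5 and 59. GABAergic neurons (92.7 and 88.8 CPM) were first in order, but not beyond counting error from the class next to them in either library.

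Between the libraries Vldlr was lower in Setdb1_cKO radial glia, 0.729 (0.663 to 0.801), and astrocytes, 0.824 (0.688 to 0.983), both short of 1.5-fold, and no member passed in radial glia, where 9.18% of measured genes did. The radial glia difference stood in cells that held UMIs of Mki67 or Top2a, markers of division, at 68 and 43 CPM, and in cells without them, at 102 and 73.9 CPM. In pyramidal or mossy neurons the Vldlr ratio was 1.39 (1.17 to 1.66), and 1.56 once the median log2 ratio of that class, -0.17, was set to 0. In ependymal cells the ratio of 3.09 (1.15 to 11.7) passed as higher, as 3.57% of measured genes did, and rested on 4 control UMIs.

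**Figure D3:**
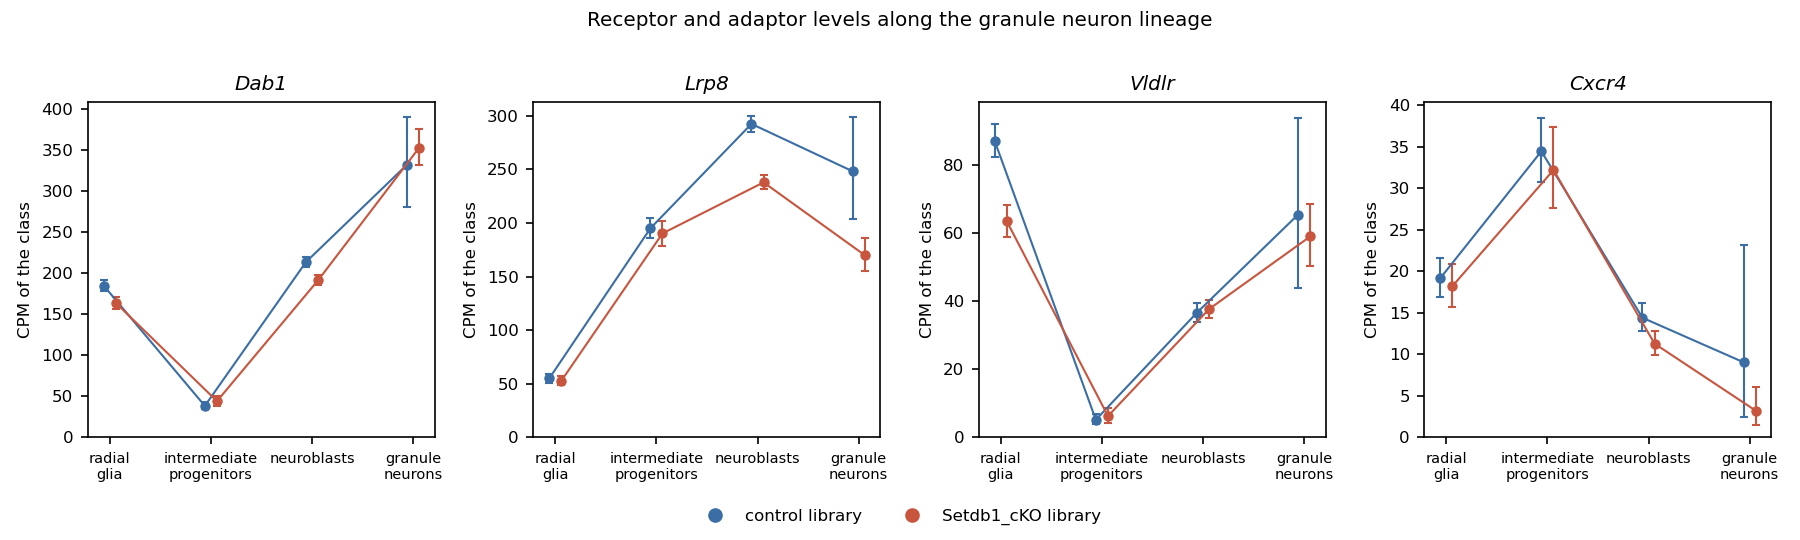
CPM of Dab1, Lrp8, Vldlr and Cxcr4 in 4 classes of the granule lineage, control and Setdb1_cKO, with exact 95% Poisson intervals. Dab1 and Vldlr dip in intermediate progenitors in both libraries, where Cxcr4 peaks, and Lrp8 is highest in neuroblasts.

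Dab1 (ENSMUSG00000028519, chromosome 4, from 103619359 to 104744844, forward strand) encodes the adaptor that both receptors use, and its exons cover 0.703% of the gene. Whether intronic reads were counted was not given in the sources used here. Dab1 was highest in granule neurons, at 332 CPM from 147 control UMIs and 352 CPM from 991 Setdb1_cKO UMIs. Neuroblasts followed at 213 and 191 CPM and radial glia at 184 and 163. When classes came from clusters, none of which was named granule neurons, neuroblasts led in control and radial glia in Setdb1_cKO. That order left out unnamed cluster 1, which held 88% of gated Setdb1_cKO granule neurons and 37.2% of gated Setdb1_cKO neuroblasts. Intermediate progenitors were lower, at 38.1 and 43.9 CPM, 0.207 times (0.184 to 0.231) radial glia in control and 0.269 times (0.234 to 0.308) in Setdb1_cKO. Cajal-Retzius cells, the source of reelin, stood at 22 and 17.1 CPM. There 3.74% and 3.47% of thinned cells held a Dab1 UMI, against 30.6% and 27.5% of neuroblasts and 1.96% and 0% (up to 2.05%) of microglia.

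Along the granule lineage no Dab1 ratio neared 1.5-fold. It was 0.886 (0.834 to 0.942) in radial glia and 1.15 (0.972 to 1.36) for intermediate progenitors. In neuroblasts it was 0.896 (0.858 to 0.935), and granule neurons had 1.06 (0.892 to 1.27). Over all 14 measured classes only microglia passed, lower at 18.1 and 7.44 CPM on 19 and 11 UMIs, where 6.78% of measured genes passed as lower, and that call was lost without the top cells. Joint detection of Dab1 and its receptors in a cell was read against the product of their shares, with no test. In thinned control neuroblasts 420 cells held both Dab1 and Lrp8 UMIs where the product gives 449, and 88 held Dab1 and Vldlr where it gives 72.3. In Setdb1_cKO neuroblasts the numbers were 342 and 339 for Lrp8, and 78 and 65.8 for Vldlr.

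Cxcr4 (ENSMUSG00000045382) lies on the reverse strand of chromosome 1, from 128588199 to 128592293. The 250 bases before its start, chr1:128592300-128592549 on the reverse strand of GRCm38.p6, are shown because they hold a TATAAA motif, which 12.4% of promoter stretches hold on at least 1 strand. Capitals mark 2 overlapping matches, counted on both strands, and the first base of the motif lies 30 bases before the RefSeq start.
Cxcr4: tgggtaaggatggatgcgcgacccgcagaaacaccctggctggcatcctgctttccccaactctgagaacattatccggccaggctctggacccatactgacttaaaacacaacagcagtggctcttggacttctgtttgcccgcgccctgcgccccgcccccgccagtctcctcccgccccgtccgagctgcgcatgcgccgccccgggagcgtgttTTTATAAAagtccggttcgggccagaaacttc
A match of letters is a description and not a measured site.

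Cxcr4 peaked early in the granule lineage. Intermediate progenitors had 309 control UMIs (34.4 CPM) and 176 Setdb1_cKO UMIs (32.2 CPM), against 19.2 and 18.2 CPM in radial glia and 14.4 and 11.3 in neuroblasts. The progenitors were 1.8 times (1.52 to 2.12) radial glia in control and 1.77 times (1.44 to 2.18) in Setdb1_cKO, and neuroblasts held 0.418 times (0.354 to 0.493) and 0.35 times (0.287 to 0.427) the level of progenitors. In thinned cells 7.08% and 4.85% of intermediate progenitors held a Cxcr4 UMI, and 0.654% and 1.69% of microglia. Cajal-Retzius cells, which also make the ligand, carried Cxcr4 at 39.6 and 37.7 CPM (128 and 132 UMIs). In thinned Cajal-Retzius cells 30 control and 20 Setdb1_cKO cells held UMIs of both Cxcl12 and Cxcr4, where the product of the shares gives 29.96 and 17.9.

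No measured class passed 1.5-fold for Cxcr4. The ratio was 0.95 (0.787 to 1.15) in radial glia and 0.935 (0.772 to 1.13) for intermediate progenitors. Cajal-Retzius cells had 0.952 (0.741 to 1.22). In neuroblasts it was 0.783 (0.657 to 0.933), which turned to 1.18 when classes came from clusters, without the cells of unnamed cluster 1. Ependymal cells (47 and 27.2 CPM) and mural cells (25.1 and 49.3 CPM) rested on 7 to 21 UMIs.

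Ackr3 (ENSMUSG00000044337, chromosome 1, from 90203980 to 90216751, forward strand) was barely detected, with 84 UMIs over all control cells and 68 over all Setdb1_cKO cells. Oligodendrocyte progenitors held 19 of them in control (11.4 CPM) and 3 in Setdb1_cKO (2.65 CPM). Fibroblasts held 1 and 12 UMIs. Cajal-Retzius cells held none in either library, and 0 of 401 and 0 of 375 thinned cells allow at most 0.916% and 0.979% of cells with a UMI. Only neuroblasts reached 30 UMIs, 17 and 13, with a ratio of 0.692 (0.309 to 1.51), so differences in Ackr3 were mostly not detectable at this depth.

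**Figure D4:**
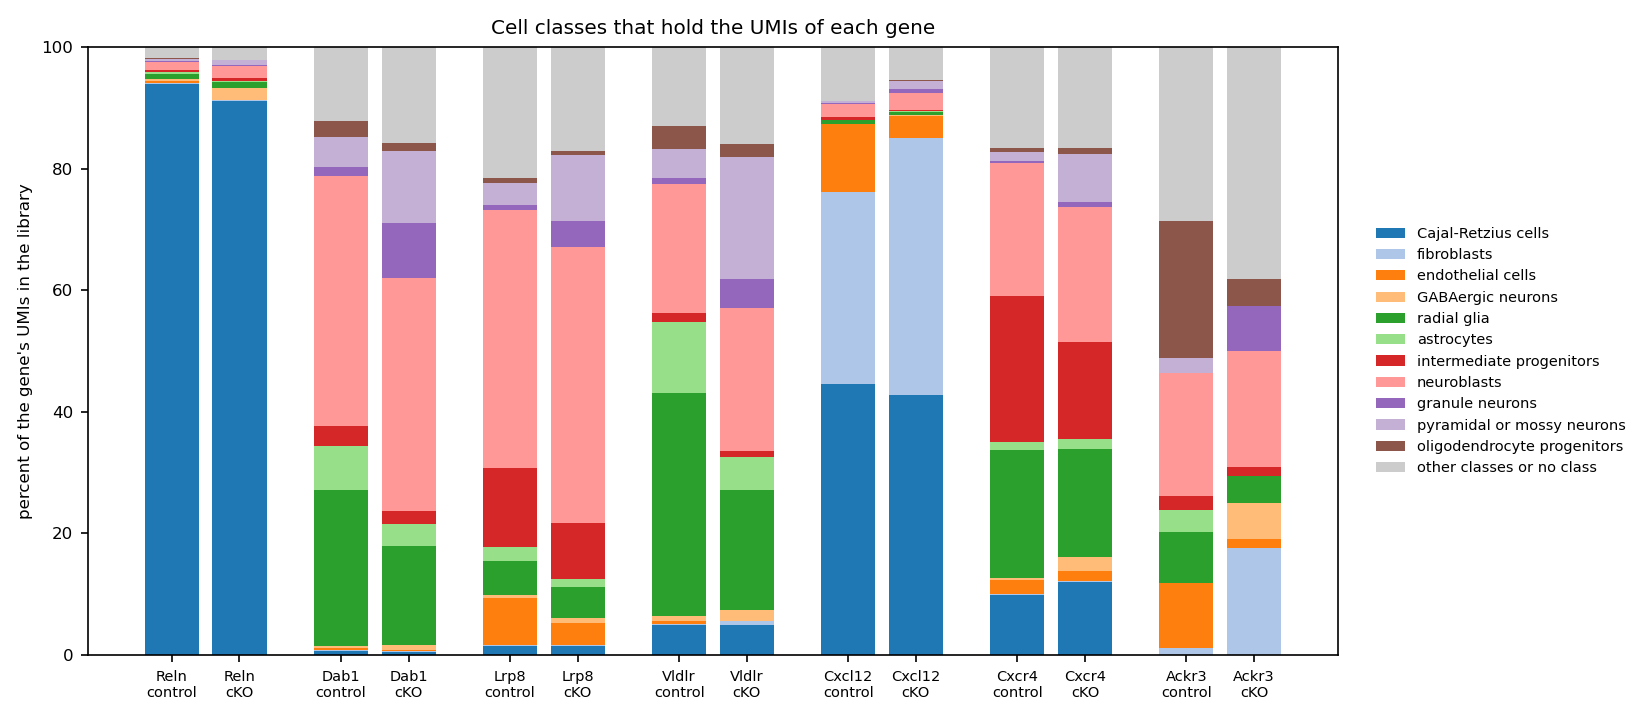
Share of each gene's UMIs, in percent of all its UMIs in kept cells of a library, that lay in each cell class, for control and Setdb1_cKO. Cajal-Retzius cells hold 94% and 91.2% of Reln UMIs, and 44.5% and 42.8% of Cxcl12 UMIs.

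Of the 105 pairs of gene and class, 67 were measured and 9 passed 1.5-fold with an interval that excluded 1, 4 higher and 5 lower in Setdb1_cKO. Over all genes the share that passed in either direction was between 5.22% and 12.7% by class. By gene, 5 of 12 measured classes passed for Reln, 2 of 9 for Cxcl12, 1 of 14 for Dab1, 1 of 10 for Vldlr, and none of 13 for Lrp8, of 8 for Cxcr4 and of 1 for Ackr3. The Reln calls lay outside its main source. Of the 9 calls, 2 held in 8 or more of the alternatives tried, Reln in intermediate progenitors and Cxcl12 in endothelial cells.

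**Figure D5:**
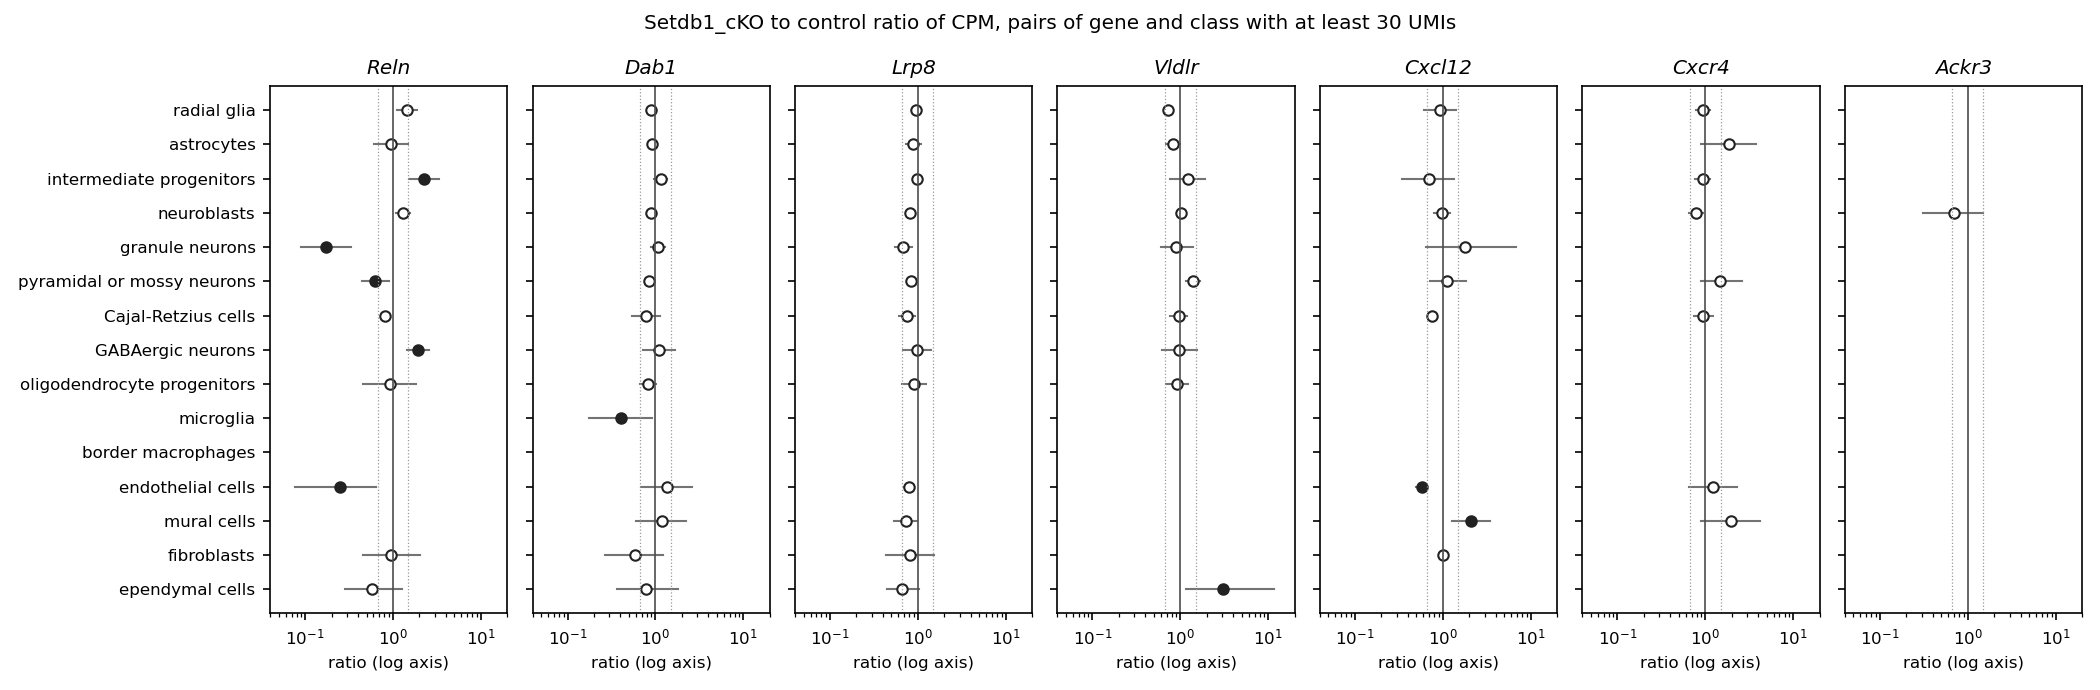
Setdb1_cKO to control ratio of CPM for the 67 pairs of gene and class with at least 30 UMIs, on a log axis with exact 95% intervals and lines at 1.5-fold. The Cajal-Retzius ratios of Reln (0.815) and Cxcl12 (0.747) lie inside the lines.

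The genes that act with the 7 were read as lists, with counts for the classes named. Of 20 genes of reelin signalling inside the cell, 20 were measured in radial glia, where 1 was higher and none lower, beside 4.86% higher over all measured genes. That gene was Pik3r1, a regulatory subunit of PI3 kinase, at 54.7 CPM in control cells and 90.8 in Setdb1_cKO cells, 1.66 (1.51 to 1.83). In intermediate progenitors 1 of 19 was higher and none lower, beside 3.82% of all genes. Both counts are near the share over all genes. The progenitor gene was Limk1, a kinase that acts on cofilin, at 39.6 CPM in control cells and 69.1 in Setdb1_cKO cells, 1.75 (1.51 to 2.03). Among neuroblasts none of 20 passed, nor did any of 20 in Cajal-Retzius cells. In ependymal cells, with 20 control cells, 3 of 15 were lower and none higher, beside 3.86% lower over all genes. Mural cells had 1 of 14 lower, beside 5.59%, and that gene was Pik3r1 (126 and 32 UMIs). Astrocytes had 1 of 19 higher, beside 4.74% over all genes, and endothelial cells 1 of 17 higher, beside 2.22%. Pyramidal or mossy neurons had 1 of 20 lower, beside 8.15%, and the remaining classes had none. The list's median log2 ratio was -0.05 in radial glia and -0.02 in neuroblasts, against -0.05 and -0.05 over all measured genes.

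The list of genes that act on reelin signalling outside the cell or at the membrane held 14 genes, among them B-type ephrins. The ephrins were not a list of their own, so their calls are given by gene and are no result about ephrins as a group. Efnb3 was higher in radial glia at 18 CPM in control cells and 36.8 in Setdb1_cKO cells, 2.05 (1.75 to 2.41). In astrocytes it stood at 21.9 CPM in control cells and 60.5 in Setdb1_cKO cells, 2.76 (2.15 to 3.57). Efnb1 was higher in intermediate progenitors at 11.4 CPM in control cells and 26.5 in Setdb1_cKO cells, 2.33 (1.8 to 3.04). It was lower in pyramidal or mossy neurons at 15.4 CPM in control cells and 9.81 in Setdb1_cKO cells, 0.639 (0.456 to 0.904). By class, 1 of 10 measured genes was higher and none lower in radial glia (over all genes 4.86% higher and 4.32% lower), and 2 were higher and 1 lower of 10 in astrocytes (over all genes 4.74% and 4.21%). In intermediate progenitors 2 of 9 were higher and none lower (over all genes 3.82% and 5.38%). The list's median log2 ratios in these 3 classes were 0.14, 0.14 and 0.21, against -0.05, 0.02 and -0.02 over all measured genes. Nectin3, an adhesion protein, was higher in Cajal-Retzius cells at 15.5 CPM in control cells and 26.8 in Setdb1_cKO cells, 1.74 (1.22 to 2.5), the only call among 8 measured there. In fibroblasts Thbs1, a secreted protein that binds the reelin receptors, was higher at 15.9 CPM in control cells and 50.6 in Setdb1_cKO cells, 3.18 (1.98 to 5.29). Mylip, a ubiquitin ligase that acts on these receptors, was lower there at 50.5 CPM in control cells and 29.6 in Setdb1_cKO cells, 0.586 (0.399 to 0.856). Mylip also passed as lower in astrocytes (181 and 61 UMIs) but as higher in microglia (235 and 502 UMIs). Thbs1 and Mylip were the only calls among 11 measured genes of the list in fibroblasts, where 3.65% of all genes were higher and 2.63% lower. Of 9 immediate early and dissociation genes in fibroblasts 4 were higher and none lower (summed ratio 1.21), and both proliferation markers, Top2a and Mki67, were higher (summed ratio 2.16). Their part in these calls was not tested.

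Among 16 genes of Cxcl12 signalling inside the cell, Rgs16, which limits signalling by G proteins, was higher in 3 classes. In radial glia it stood at 2.12 CPM in control cells and 4.62 in Setdb1_cKO cells, 2.18 (1.36 to 3.55). Intermediate progenitors held it at 9.7 CPM in control cells and 19.6 in Setdb1_cKO cells, 2.02 (1.51 to 2.71). For neuroblasts the values were 0.765 CPM in control cells and 3.51 in Setdb1_cKO cells, 4.59 (2.61 to 8.59). Of 16 measured genes of the list, 1 was higher and 1 lower in radial glia, where 4.86% of all genes were higher and 4.32% lower. In neuroblasts 2 of 16 were higher and none lower (over all genes 6.11% and 5.11%). Granule neurons had no Rgs16 call, and of 14 measured genes none was higher and 2 were lower (over all genes 3.1% and 5.81%). The lower genes there were Arrb2, which encodes a beta-arrestin, at 40.6 CPM in control cells and 21.7 in Setdb1_cKO cells, 0.534 (0.311 to 0.96), and Grk3, a kinase that acts on G protein-coupled receptors, at 33.9 CPM in control cells and 15.6 in Setdb1_cKO cells, 0.462 (0.252 to 0.894). In pyramidal or mossy neurons none of 15 was higher and 2 were lower (over all genes 4.54% and 8.15%). None of 11 measured passed in endothelial cells and none of 15 in Cajal-Retzius cells. Among 17 other chemokine genes, 4 of 9 measured were higher and none lower in microglia, where 3.7% of all genes passed as higher. Ccl4, an attractant of immune cells, stood at 289.9 CPM in control cells and 1234 in Setdb1_cKO cells, 4.26 (3.77 to 4.82). Its relative Ccl3 stood at 486 CPM in control cells and 1068 in Setdb1_cKO cells, 2.2 (1.99 to 2.43). Of the immediate early and dissociation genes in microglia, 1 was higher and 4 lower of 8, and their part was not tested.

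Over the 15 classes of both libraries (30 points), the genes most like each of the 7 were found by Pearson's correlation of log2(CPM + 1) among 12434 genes that reached 20 CPM. Points share libraries and depth, so these are descriptions. For Reln they were Pnoc (0.931), Hs3st5 (0.919) and Kcnk9 (0.914), and for Cxcl12 Il34 (0.885), Apod (0.857) and Igf2 (0.852). Lrp8 was most like Sorbs2 (0.893), Frmd5 (0.861) and Gfod2 (0.851), and Vldlr most like Chadl (0.925), Kif1bp (0.925) and Acsl6 (0.901). Dab1 had Sybu (0.911), Ctnnd2 (0.909) and Nlgn1 (0.905), Cxcr4 had Enpp4 (0.853), Pak1ip1 (0.851) and Plcb4 (0.795), and Ackr3 had Ntn1 (0.729), Ednra (0.697) and Sod3 (0.691).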

How the data were processed

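The authors deposited whole-number UMI counts for each gene and barcode, without normalisation, per the file headers and the values. Cell Ranger 7.1.0, Seurat and mm10 are named in the submitters' processing notes. The lowest barcode held 500 UMIs, and the libraries shared 68 barcodes, 38 of them kept.

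Cells were kept with at least 1000 UMIs, 500 genes and at most 10% mitochondrial UMIs. Scrublet (scanpy 1.11.5) called 5.08% of control and 5.86% of Setdb1_cKO barcodes doublets, and these were removed. Each cell was classed by marker genes other than the 7, with gate thresholds set after marker values were seen, which left 12.7% and 14.2% of cells without a class. Up to 42.8% of the cells of a class lay near its gate. UMIs were summed by class and library and scaled to CPM. Intervals are exact (95%): conditional Poisson for ratios, Clopper-Pearson for shares. Shares used cells thinned to 2000 UMIs, without shallower cells. A gene passed at 1.5-fold with an interval that excluded 1 and at least 30 UMIs over both libraries. Counts were also simulated from the Poisson model that the intervals assume, without added spread between cells. There the intervals held the true ratio for 95.4% of genes in neuroblasts and 95.8% in Cajal-Retzius cells. Such coverage was built into the simulation and does not check the intervals on the real counts. With 1 library a genotype no p-value was computed.

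All 7 members are named. From each list and class at most 4 genes past the limit could be named, and for likeness 3 genes a member. Members and lists were chosen with earlier results of these data known.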

Additional observations from a re-analysis of the deposited data

How the results depend on the processing

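Of the measured member ratios, 67 of 67 moved by less than their counting interval with looser cell filters, 66 of 67 without mitochondrial, haemoglobin, ribosomal protein and sex-linked UMIs, 65 of 67 with class medians set to 0, 64 of 67 with doublets kept, 63 of 67 with a stricter gate and 63 of 67 without the cell with most UMIs, an alternative chosen after seeing the data. The numbers were 53 of 67 with stricter filters, 44 of 62 with classes from clusters and 43 of 66 with thinning. Over all pairs, 5 passed with thinning, 5 with stricter filters, 3 without the top cell and 15 with doublets kept. These numbers can include pairs that were not among the 9 calls. Of the 9, only Reln in intermediate progenitors and Cxcl12 in endothelial cells held with thinning. With stricter filters these held, as did Reln in pyramidal or mossy neurons. Among the 9 ratios that had passed, the direction turned for Reln in pyramidal or mossy neurons (1.24 without the top cell) and in endothelial cells (1.18 with clusters, 5.04 with stricter filters on 1 and 3 UMIs), and for Cxcl12 in mural cells (0.172 with the stricter gate, 0.291 with clusters). For 1 class a gene, ratios that had not passed moved outside their interval, at times across 1: Reln in Cajal-Retzius cells (0.781 with doublets kept), Cxcl12 in fibroblasts (1.11 thinned, 0.91 with stricter filters), Cxcr4 in Cajal-Retzius cells (0.68 thinned), Dab1 in granule neurons (0.75 thinned), Vldlr in GABAergic neurons (2.32 thinned), Lrp8 in endothelial cells (1.04 with the stricter gate) and Ackr3 in neuroblasts (0.293 with clusters). Other ratios that had not passed also crossed 1, such as Cxcr4 in neuroblasts (1.18 with clusters). Classes from clusters left out unnamed clusters, among them 1 and 8, which held mostly Setdb1_cKO cells. The causes were not tested. For the genes that act on reelin signalling outside the cell, 15 pairs of gene and class passed with a minimum of 30 UMIs and 23 with a minimum of 10 or 1. No paired analysis was possible because each genotype had 1 library. Low counts limit Ackr3 in every class, and few control cells limit the ependymal, GABAergic and granule classes (20, 24 and 56 cells).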
